A study of Homo sapiens with 6 samples.

Results

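The replication-dependent histone genes were described here by the accessible regions assigned to them in an ATAC-seq study of A375 cells, an established human melanoma line. ATAC-seq uses the Tn5 transposase to insert adapters into open DNA, so that more reads at a region mean more accessible chromatin. Members were the regions whose assigned gene name began with HIST1H, HIST2H, HIST3H or HIST4H, the older names of the clustered histone genes, or with the newer equivalents, at 10000 bases or less from that gene's start. The rule found 131 of 226920 regions, named for 59 of 19059 gene names, and all 59 were older names. The rule used names and distances and no measured change.

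The 3 groups had 2 libraries each: mock, which was left untreated, and HMGA1 treatment with the recombinant protein that lasted either 2 h or 18 h. All libraries came from this single line, and no other agent was named in the labels. The labels speak of biological replicates without saying whether these were separate cultures, and the p-values reflect only how far these libraries differ within a group, which may be technical. The values are those of the authors' 3 deposited comparison tables, which hold no value for a single library. For that reason no level per library can be shown, whether the groups overlap cannot be stated, and the depth of each library is unknown. HMGA1 is a small nuclear protein that bends DNA and prefers stretches rich in A and T, and the study added it to the medium to follow its internalization.

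Replication-dependent histone genes supply the H1, H2A, H2B, H3 and H4 proteins that package newly made DNA in S phase. They lie in clusters of many near copies, lack introns, and make messages that end in a stem-loop bound by SLBP and not in a poly(A) tail. NPAT, a substrate of cyclin E and CDK2, gathers at these clusters in histone locus bodies and drives their transcription.

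The members lay on chromosomes 1, 6 and 12. HIST1, the large cluster on chromosome 6, held 86 regions of 46 gene names. HIST2 on chromosome 1 held 28 regions of 9 names, HIST3 farther along chromosome 1 held 15 regions of 3 names, and the lone HIST4H4 on chromosome 12 held 2 regions. Clusters were assigned by name. Of the HIST2 regions, 24 lay at chr1:149808842-149886746, and those of HIST2H3PS2 lay outside the cluster, at chr1:143900814-143906106. By type, 34 regions belonged to H4 genes, 35 to H2B, 24 to H2A, 24 to H3 and 11 to the linker histone H1, and 3 regions touched the starts of an H2A and an H2B gene named together. In all, 45 regions touched a gene start, 8 lay within 1000 bases of one and 78 farther out, up to 10000 bases. The farthest members inside the distance limit lay 9852 bases from HIST1H2BN and 9442 bases from HIST1H1C, with mean signals of 81.6 and 110 in the authors' deposited table. The nearest regions outside it lay 10363 bases from HIST1H2BN and 10485 bases from HIST1H4H, with mean signals of 87.2 and 285 there.

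The letters before the start show what the gene types share and where they differ. Promoters are shown for 7 genes: the H1, H3 and H2B genes whose start regions are described below (HIST1H1D, HIST1H3A and HIST1H2BD), HIST1H2AL with the single called region, HIST1H2AG and HIST3H2BB from H2A-H2B pairs with high mean signal, and HIST1H4H as an H4 gene with none of the motifs searched. Each run is the 250 bases before the start, 5′ to 3′ on the gene's strand, from RefSeq on GRCh38.p14. Capitals mark matches on either strand to TATAAA (the TATA box), CCAAT (the CCAAT box), ATTTGCAT (the octamer that POU2F1 binds) and AAACACA (the H1 box). The positions are chr6:26234988-26235237 (minus strand), chr6:27132793-27133042 (plus), chr6:27865067-27865316 (plus), chr6:26157871-26158120 (plus), chr6:26020201-26020450 (plus), chr6:26285535-26285784 (minus) and chr1:228457853-228458102 (plus).
HIST1H1D: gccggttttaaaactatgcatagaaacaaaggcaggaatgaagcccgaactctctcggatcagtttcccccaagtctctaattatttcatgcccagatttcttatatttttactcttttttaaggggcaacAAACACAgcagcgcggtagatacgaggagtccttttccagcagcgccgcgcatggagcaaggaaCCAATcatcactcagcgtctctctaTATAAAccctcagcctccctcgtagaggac
HIST1H2AG: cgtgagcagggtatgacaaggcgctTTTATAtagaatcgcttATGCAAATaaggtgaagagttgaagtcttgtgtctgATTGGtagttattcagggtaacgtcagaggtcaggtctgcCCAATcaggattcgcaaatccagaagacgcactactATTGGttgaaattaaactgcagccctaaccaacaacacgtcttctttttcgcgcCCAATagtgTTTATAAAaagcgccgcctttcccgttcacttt
HIST1H2AL: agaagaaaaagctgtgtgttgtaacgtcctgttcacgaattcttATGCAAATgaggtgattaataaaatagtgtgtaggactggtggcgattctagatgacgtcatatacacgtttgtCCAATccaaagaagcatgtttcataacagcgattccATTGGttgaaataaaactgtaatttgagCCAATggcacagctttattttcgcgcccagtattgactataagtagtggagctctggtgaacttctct
HIST1H2BD: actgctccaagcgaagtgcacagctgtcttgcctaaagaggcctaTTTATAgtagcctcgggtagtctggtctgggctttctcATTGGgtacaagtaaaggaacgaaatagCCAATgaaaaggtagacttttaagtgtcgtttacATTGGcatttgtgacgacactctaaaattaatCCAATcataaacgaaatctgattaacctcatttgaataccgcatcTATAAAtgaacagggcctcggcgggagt
HIST1H3A: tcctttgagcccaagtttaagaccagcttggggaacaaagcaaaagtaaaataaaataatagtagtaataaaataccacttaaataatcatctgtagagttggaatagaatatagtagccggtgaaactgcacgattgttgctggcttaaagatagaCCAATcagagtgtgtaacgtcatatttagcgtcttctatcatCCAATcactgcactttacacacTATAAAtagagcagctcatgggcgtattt
HIST1H4H: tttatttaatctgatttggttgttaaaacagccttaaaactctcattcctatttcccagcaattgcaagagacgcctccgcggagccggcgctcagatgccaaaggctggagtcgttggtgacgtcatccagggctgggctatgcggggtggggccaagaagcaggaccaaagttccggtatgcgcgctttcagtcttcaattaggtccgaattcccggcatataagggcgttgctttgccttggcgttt
HIST3H2BB: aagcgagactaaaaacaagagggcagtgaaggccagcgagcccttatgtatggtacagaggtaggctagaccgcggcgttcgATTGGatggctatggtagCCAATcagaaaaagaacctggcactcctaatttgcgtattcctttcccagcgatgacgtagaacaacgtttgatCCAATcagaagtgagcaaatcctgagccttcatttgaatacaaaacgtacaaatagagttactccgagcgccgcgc

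Across the 66 RefSeq histone genes with a promoter entry, motif content followed the histone type. CCAAT was present in every H1 (6), H2A (16), H2B (18) and H3 (13) promoter and in 3 of 13 H4 promoters, and in 32.0% of all 35116 promoters of the same length. TATAAA was present in 45 of 66 histone promoters (68.2%) against 10.7% of all promoters. The octamer was found in 11 of 16 H2A and 14 of 18 H2B promoters and in 0 of the H1, H3 and H4 promoters, against 1.63% of all. The H2A and H2B counts are not separate, since 11 H2A-H2B pairs have starts that face away from each other, 194 to 248 bases apart. With 250 bases read on both strands, both promoters of such a pair are largely the same DNA. A match of any motif there can count for both genes. The H1 box was found in all 6 H1 promoters and in 0 of the others, against 4.82% of all. In HIST1H2AG the octamer lies 208 to 201 bases before the start and a CCAAT 42 to 38 bases before it, and the TATAAA matches on each strand nearest the start overlap. The octamer and the TATAAA match farthest from this start lie nearer to the start of the partner gene HIST1H2BJ, 248 bases away. In HIST1H1D the H1 box lies 119 to 113 bases before the start, followed by CCAAT at 55 to 51 and TATAAA at 30 to 25. The median promoter of a histone gene held 56.8% A and T bases, against 42% over all promoters. These are matches of letters and say nothing of binding in these cells.

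Most of these starts were open. Of the 66 RefSeq histone genes with a promoter entry, 50 had a start touched by an accessible region. They were 15 of 18 H2B, 11 of 13 H4, 10 of 16 H2A, 9 of 13 H3 and 5 of 6 H1 genes. The other 16 starts were touched by no region of these tables. For 7 of them a region lay within 1000 bases, from 15 bases (HIST1H2AC) to 470 bases (HIST2H3A), and HIST1H2AE, HIST1H2BL, HIST1H2BM, HIST1H3E and HIST2H2AC were the others. For 9 the nearest region was farther away: HIST1H1T, HIST1H2AA, HIST1H2AL, HIST1H2BA, HIST1H4G, HIST1H4L, HIST2H2AB, HIST2H3C and HIST3H3. For HIST1H2BE the deposited start lies 11703 bases from that of RefSeq: its start region (mean signal 327) is at the deposited start, and the region at the RefSeq start had a mean signal of 15.9 in the authors' deposited table. Among the 66 genes, the starts of 12 pairs faced away from each other, 11 of them an H2A and an H2B gene, with a median of 238 bases between the starts. In 5 of these pairs, 1 region touched both starts. A further region is named for the starts of both HIST1H2AH and HIST1H2BK, a pair left out of these counts since HIST1H2AH has no promoter entry. RefSeq lists 71 protein-coding histone genes with an older cluster name, and those without a promoter entry are outside the counts of this paragraph. Among them HIST1H4A, HIST1H4C and HIST1H3J also had regions at their deposited starts, with mean signals of 529, 568 and 600.

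The mean signal is the authors' read count per region divided by their size factors and averaged over all 6 libraries, and since all 131 members have the same length it can be compared between them. At the 45 start regions the mean signal in the authors' deposited table ranged from 53.3 to 1065, with a median of 505. All regions touching a gene start had a median of 377. The 5 highest were the region shared by HIST3H2A and HIST3H2BB (1065), HIST2H2BE (988), HIST1H2AG (832), HIST1H2BC (779) and the region shared by HIST1H2AH and HIST1H2BK (732), all of them H2A or H2B genes. The 5 lowest were HIST2H4A (53.3), HIST2H2AA3 (59.5), HIST2H2AA4 (83.9), the H1 gene HIST1H1A (193) and HIST1H2BH (196). Start regions here and below are those that touch the deposited start. Regions of HIST2H4B (59.8), HIST1H3G (219) and HIST1H4I (317) touch the RefSeq start only, and are counted as within 1000 bases of a start.

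The low values in HIST2 carry a limit. HIST2H2AA3 and HIST2H2AA4 are near-identical copies, as are HIST2H4A and HIST2H4B, and HIST2H3A and HIST2H3C. How reads that match both copies were counted is not given in the sources used here, so the levels and changes of these genes are uncertain. Away from the starts the signal was lower, with a median of 37.1 over the 78 regions beyond 1000 bases, against 36.0 for all regions between 1000 and 10000 bases from a start.

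**Figure D1:**
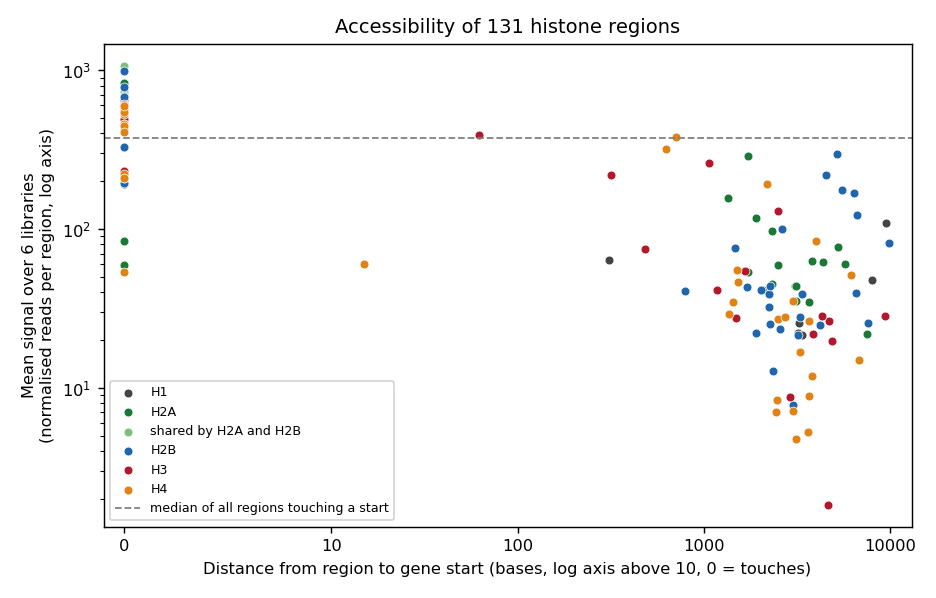
Mean signal over 6 libraries (normalised reads per region, log axis) of the 131 histone regions against the distance to the gene start in bases, coloured by histone type; the dashed line is the median of all regions touching a start. The 45 start regions have a median of 505, and the 78 regions beyond 1000 bases have a median of 37.1.

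The 2 h libraries were set against mock to see early changes in open chromatin. None of the histone regions was called in it. Of the 131 regions in the authors' deposited table, 73 had a mean signal above the limit of 56.2 under which their adjusted p is set to 1, and 0 of the 73 had an adjusted p under 0.05 (DESeq2's Wald test, Benjamini-Hochberg over all 86137 tested regions). Over all tested regions the share called was 1.28% (0.856% higher and 0.421% lower), and among tested regions touching any gene start it was 0.103%. At an unadjusted p under 0.05 there were 2 histone regions, both lower, against 10% of all tested regions (5.68% lower).

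The start regions of every histone type stood a little below mock at 2 h, as gene starts in general did. The median log2 fold change over the 44 tested histone starts was -0.08 in the authors' deposited table, and 40 of the 44 (90.9%) were below 0. For all tested regions at gene starts the median was -0.11 and 89.1% were below 0. By type the medians at the starts, tested or not, were -0.11 for H1, -0.03 for H2A, -0.06 for H2B, -0.09 for H3 and -0.08 for H4 in the authors' deposited table. The 3 regions named for an H2A and an H2B gene together were counted apart, with a median of -0.11. By RefSeq, the regions named for HIST1H2AG, HIST1H2AM and HIST1H2BF also touch the start of the paired gene. The H2A and H2B start values are thus not fully separate in any comparison. For 42 of the 44 the 95% interval (the log2 fold change with its standard error, on a normal scale) lay wholly within a 1.5-fold change in either direction, so a larger change was outside the interval there; the same held for 90.3% of all tested start regions.

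The lowest start at 2 h was that of HIST1H3A, an H3 gene, at -0.24 ± 0.12 (SE) in the authors' deposited table, with an adjusted p of 0.488 by DESeq2. The smallest p among all histone regions belonged to one 4334 bases downstream of HIST3H2A, an H2A gene, at -0.62 ± 0.31 in the authors' deposited table (adjusted p = 0.483 by DESeq2). The highest tested values were from near-copies or close to them: 0.51 ± 0.28 for a region 481 bases from HIST2H3A and 0.49 ± 0.31 for a region 15 bases from HIST2H4B in the authors' deposited table, with adjusted p of 0.555 and 0.649 by DESeq2. Neither passed the test, and both lie in the duplicated stretch of HIST2.

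After 18 h the question was whether accessibility still differed from mock. Again no histone region was called. There were 58 histone regions in the authors' deposited table that lay above the limit on mean signal of 101, and 0 of them had an adjusted p under 0.05 (DESeq2), where the share over all 55341 tested regions was 0.121% (0.00542% higher and 0.116% lower) and 0% at gene starts. At an unadjusted p under 0.05 there was 1, lower at 18 h, against 7.89% of all tested regions (7.32% lower). It was the start of HIST1H2BD, an H2B gene, at -0.21 ± 0.10 with an adjusted p of 0.568 by DESeq2 in the authors' deposited table. Among tested members the highest start was that of HIST1H1A at 0.26 ± 0.17 (adjusted p = 0.798 by DESeq2) in the authors' deposited table.

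Across the 42 tested histone starts the 18 h median was -0.02 in the authors' deposited table, against -0.05 for all tested gene starts. By type, tested or not, H4 starts had a median of 0.05 with 9 of 11 above 0 and H1 starts 0.06 with 4 of 5 above 0, while H2B starts had -0.08 with 9 of 10 below 0 and H2A starts -0.08 with 6 of 7 below 0. The 3 starts named for H2A and H2B together had -0.10, with 2 below 0 and 1 above. The 95% interval lay within a 1.5-fold change for 41 of the 42 tested starts, and for 96.5% of all tested gene starts.

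The comparison of 18 h with 2 h shares its libraries with the other comparisons, so it gives no independent support to them. It asked how accessibility moved between the time points. There were 85 histone regions in the authors' deposited table above the limit on mean signal of 41.7, and 1 of them was called, upward (DESeq2, adjusted p under 0.05); over all 108134 tested regions the share called was 3.48% (0.498% higher and 2.98% lower), and 0.256% among gene starts. Read against these shares, a single call is not a result about the histone genes as a group. At an unadjusted p under 0.05 there were 9 tested histone regions, all higher at 18 h, against 11.6% of all tested regions in either direction and 3.44% with a higher value.

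The called region lay upstream of HIST1H2AL, an H2A gene of the HIST1 cluster, at chr6:27862547-27863048 on hg38. It is 2307 bases before the deposited start, and no RefSeq gene overlaps it. Its mean signal was 97.7, and its log2 fold change between 2 h and 18 h was 0.80 ± 0.25, a 1.74-fold rise with an adjusted p of 0.0407 by DESeq2 in the authors' deposited table. Against mock the values were -0.46 ± 0.25 at 2 h (adjusted p = 0.562 by DESeq2) and 0.34 ± 0.24 at 18 h, where the region was under the limit for testing in the authors' deposited table. The region was thus not called against mock at either time. The start of HIST1H2AL itself, whose promoter letters are given above with an octamer and 3 CCAAT matches, was touched by no region of these tables. The nearest region to it lay 1929 bases away and was named for HIST1H1B.

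At the starts, values were centred slightly above 0 between 2 h and 18 h, again like gene starts in general. The median over the 45 histone starts was 0.06 in the authors' deposited table with 33 above 0 (73.3%), against 0.06 and 73.4% for all tested gene starts. H1 and H4 starts stood highest, with medians of 0.17 (5 of 5 above 0) and 0.15 (10 of 11 above 0), and H2B and H2A starts stood near 0, with medians of 0.03 and -0.01. The 3 starts named for H2A and H2B together had a median of 0.05. No test of a difference between types was made. HIST1H3F had 0.34 ± 0.16, HIST1H3A 0.33 ± 0.12, HIST1H1D, which encodes a linker histone, 0.27 ± 0.11, and HIST4H4 0.27 ± 0.12 in the authors' deposited table, with DESeq2 adjusted p of 0.339, 0.114, 0.208 and 0.288. These 4 were the starts with an unadjusted p under 0.05, and none passed the adjusted threshold. They were 8.89% of the histone starts, against 3.19% of all tested gene starts (2.58% higher). The lowest start was that of HIST2H4A, a near-copy, at -0.50 ± 0.36. The 95% interval lay within a 1.5-fold change for 40 of 45 starts.

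**Figure D2:**
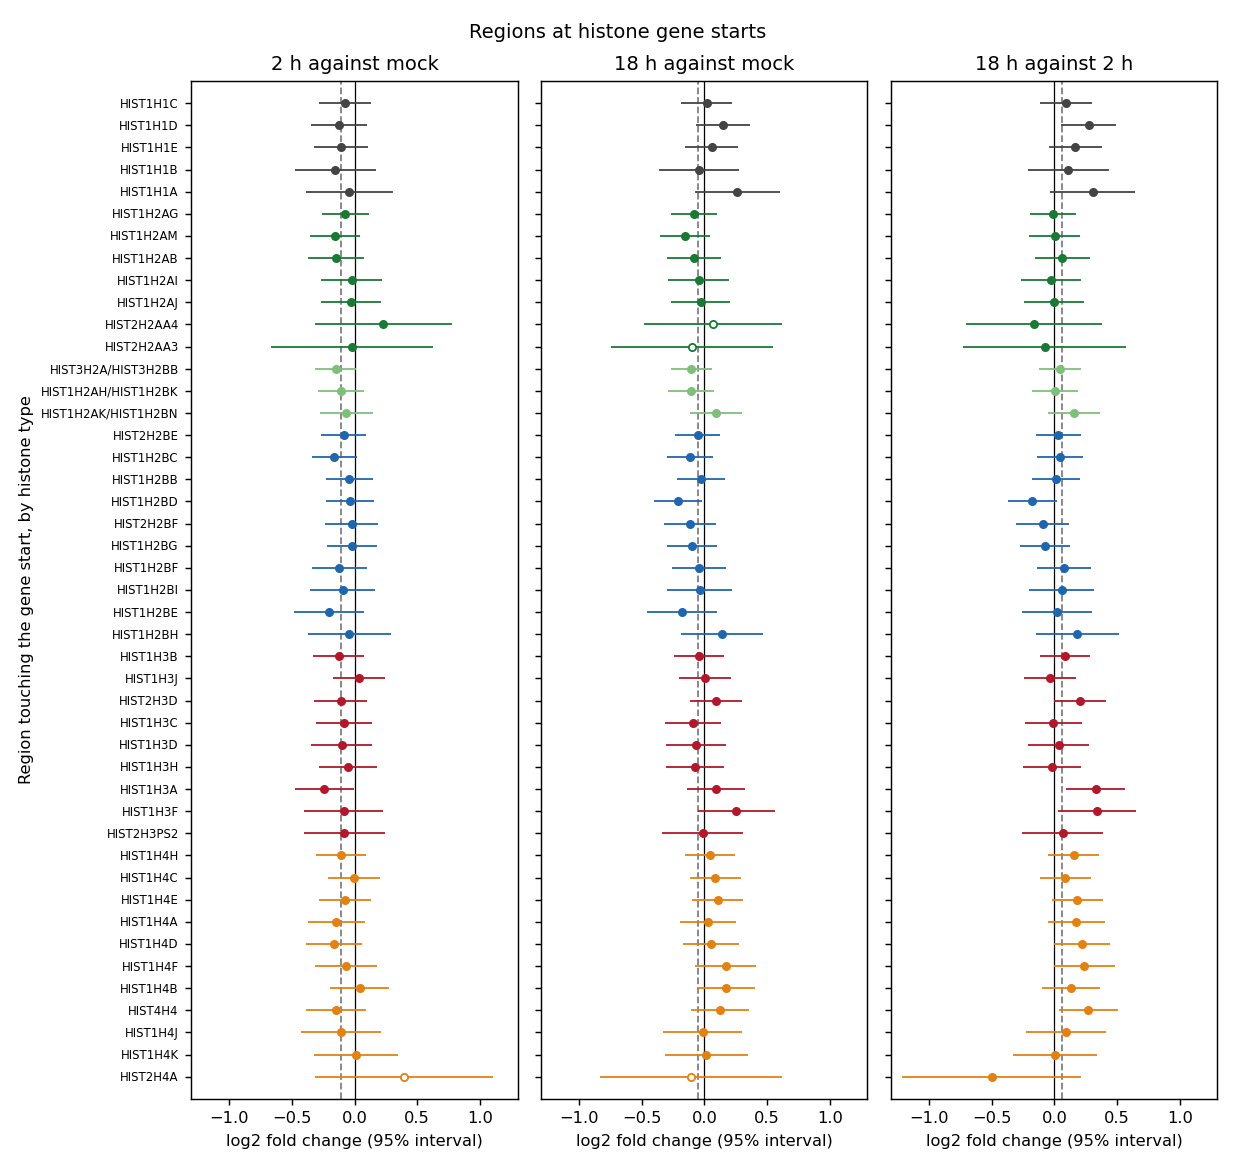
Log2 fold change with its 95% interval for the 45 regions touching a histone gene start, grouped and coloured by type, in each comparison of the authors' deposited tables; open points are regions under the limit for testing, and dashed lines are medians of all tested gene starts. At 2 h 40 of 44 tested starts are below 0, and at 18 h against 2 h 33 of 45 are above 0.

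The weak regions between and behind the histone genes gave a different picture from the starts. This pattern was noticed after the values were seen and is given as a description, with no test. The 78 histone regions at more than 1000 and at most 10000 bases from a start, called flanking regions here, had a median log2 fold change of 0.39 for 18 h against 2 h, and 62 (79.5%) were above 0, in the authors' deposited table. All 39256 regions at that distance had a median of 0.01, with 51.7% above 0. Against mock the histone medians were -0.10 at 2 h and 0.31 at 18 h, with 26 and 55 of 78 above 0, while all regions at that distance had 0.01 and 0.01.

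Most of these regions were too weak for the authors' test. At 18 h against 2 h, 45 of the 78 lay under the limit on mean signal, with a median of 0.62, and the 33 tested had a median of 0.18 in the authors' deposited table. At 18 h against mock the direction differed between them: the 12 tested regions had a median of -0.08 and the 66 untested ones 0.38. All tested regions at that distance had a median of -0.07 in that comparison, and all untested ones 0.06. The tested histone regions were thus near the background there, and the higher histone median came from untested weak regions. The median standard error of the 78 regions was 0.40 for 18 h against 2 h, about as large as the median change. For 18 h against 2 h, 10 of the 78 had an unadjusted p under 0.05, all higher, and 1 of these was called. Of all 39256 regions at that distance, 5.1% had such a p in either direction and 1.58% had it with a higher value. For 18 h against mock, 6 of the 78 had such a p, all higher and all untested. Of all regions at that distance 3.11% had it in that comparison, 0.966% with a higher value.

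The values also differed by the side of the gene. Taking strands from RefSeq, 56 of the 78 regions lay downstream of the start, 18 upstream and 3 at genes without a strand entry; 1 region of HIST1H2BE was given no side because of its differing starts. For 18 h against 2 h the downstream regions had a median of 0.52 with 46 of 56 above 0, and the upstream regions 0.17 with 12 of 18 above 0, in the authors' deposited table. Of the downstream regions, 44 lay past the annotated end of the gene, with a median of 0.50, and 12 within it, with 0.61. Over all genes with a strand, the medians were -0.01 downstream and 0.03 upstream. At 2 h against mock the downstream histone regions had a median of -0.17 with 12 of 56 above 0, against 0.02 for all downstream regions. The upstream regions include all 3 of HIST2H2AA3 and all 3 of HIST2H2AA4, and regions of HIST2H4A and HIST2H4B lie on both sides. The changes of these near-identical copies are uncertain, so the sides also differ in their share of copies. No test of the difference between sides was made.

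**Figure D3:**
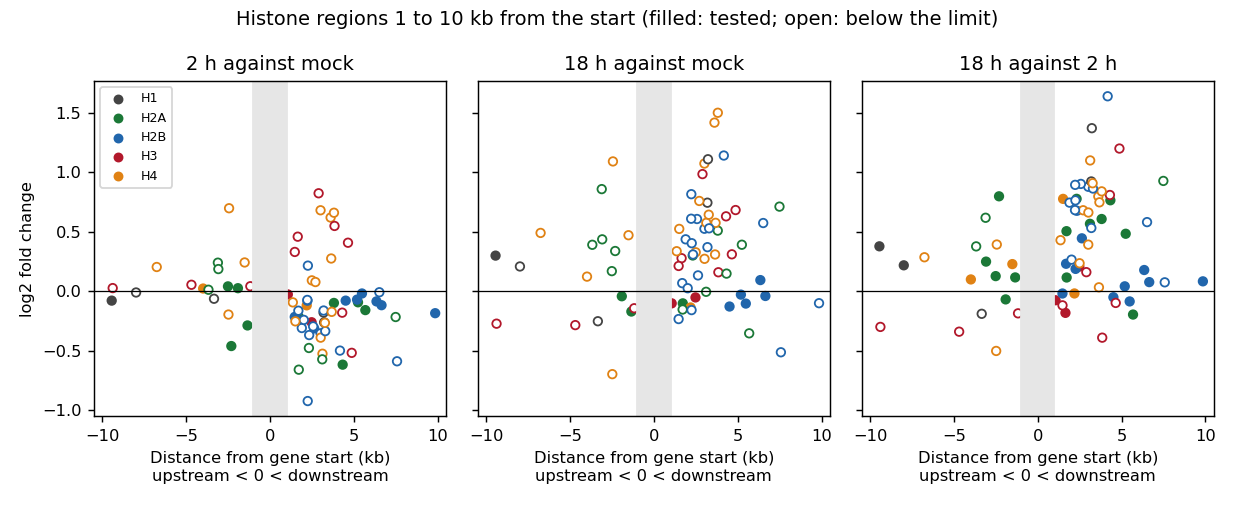
Log2 fold change of the 56 downstream and 18 upstream flanking histone regions against distance from the start in kb, upstream to the left and downstream to the right, in each comparison; filled points were tested by the authors and open points lay under the limit on mean signal. For 18 h against 2 h, 46 of 56 downstream and 12 of 18 upstream regions are above 0, and the 4 regions given no side are not drawn.

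Flanking medians were above 0 in 4 of the 5 histone types. For 18 h against 2 h the medians of flanking regions were 0.51 for H2A (15 of 17 above 0), 0.44 for H2B (21 of 24), 0.41 for H4 (18 of 20) and 0.38 for H1 (4 of 5), and -0.11 for H3 (4 of 12 above 0), in the authors' deposited table. By cluster name they were 0.43 for HIST1, 0.38 for HIST2 (HIST2H3PS2 included) and 0.36 for HIST3. Per gene, 31 of 38 gene names had a median above 0. Without the near-identical HIST2 copies the median was 0.44. Most of the 17 H2A regions came from few genes: 7 neighbouring regions of HIST3H2A, and 3 each of the near-identical copies HIST2H2AA3 and HIST2H2AA4. The H2A count is thus not one of separate genes.

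The highest values, taken among regions with a mean signal above 10, lay 2 to 5 kb from starts. A region 4172 bases downstream of HIST2H2BE, an H2B gene whose message can also be polyadenylated, had 1.64 ± 0.51 with an unadjusted p of 0.00141 in the authors' deposited table. A region 3228 bases downstream of HIST1H1D had 1.37 ± 0.47 (unadjusted p = 0.00355), one 4874 bases downstream of HIST1H3G, an H3 gene, 1.20 ± 0.55 (unadjusted p = 0.0296), and one 2080 bases from HIST1H2AH 1.11 ± 0.38 (unadjusted p = 0.00307) in the authors' deposited table. Their mean signals ran from 19.6 to 41.3, all under the limit for an adjusted p by DESeq2, and no RefSeq gene overlaps them. The start regions of HIST2H2BE and HIST1H1D stood at 0.03 and 0.27 in the same comparison. These 4 regions were picked after their values were seen.

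The longest series of neighbouring regions lay behind HIST3H2A, which shares its start region with HIST3H2BB. In the authors' deposited table, 7 regions from 1716 to 7493 bases downstream of the HIST3H2A start had log2 fold changes of 0.51, 0.78, 0.57, 0.61, 0.77, 0.48 and 0.93 for 18 h against 2 h, in order of distance. All 7 were above 0, and their standard errors ran from 0.28 to 0.51. The region at 7493 bases lay under the limit on mean signal and was not tested. None of the others was called (DESeq2, smallest adjusted p of 0.187). For 2 h against mock the same regions had -0.66, -0.48, -0.57, -0.10, -0.62, -0.09 and -0.22 in the authors' deposited table, all below 0 and none called. Against mock at 18 h the 7 regions ranged from -0.15 to 0.71, and all lay under the limit for testing. The shared start region, the most accessible of all histone starts, stood at -0.15 ± 0.08, -0.10 ± 0.08 and 0.05 ± 0.08 in the 3 comparisons. On the other side, 4 regions behind HIST3H2BB had values between -0.08 and 0.23 for 18 h against 2 h. The 7 regions are neighbours measured in the same libraries and are not independent replicates. The series as a whole was not planned for description.

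**Figure D4:**
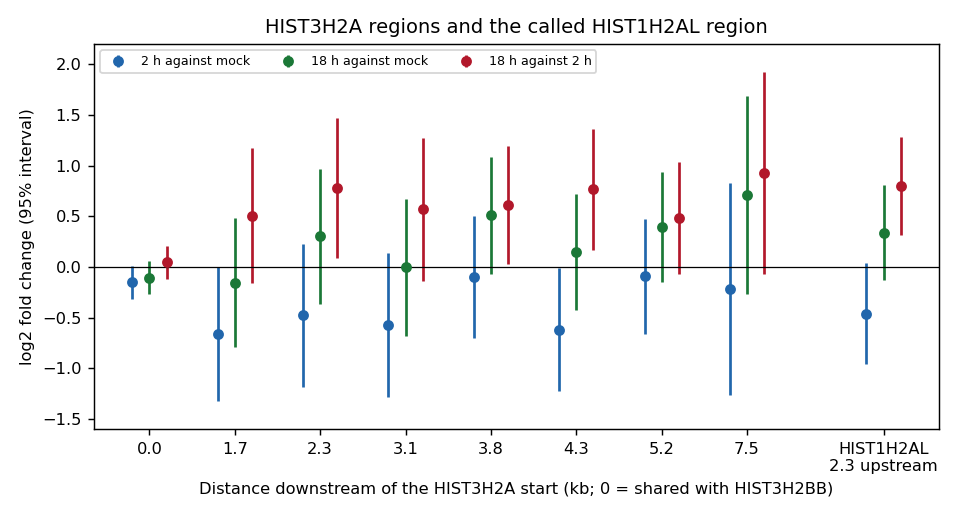
Log2 fold change with its 95% interval in the 3 comparisons for the start region shared by HIST3H2A and HIST3H2BB, the 7 regions downstream of HIST3H2A by distance in kb, and the called region upstream of HIST1H2AL. The 7 regions lie above 0 for 18 h against 2 h and below 0 for 2 h against mock, and the HIST1H2AL region has 0.80.

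Other multigene families read the same way had smaller medians for 18 h against 2 h. For flanking regions the medians in the authors' deposited table were 0.10 for 384 regions of cytosolic ribosomal protein genes, 0.04 for 637 regions of numbered zinc finger genes and 0.05 for 55 regions of HOX genes. Among regions with a mean signal of 10 to 100 the histone median was 0.53 (57 regions) and that of all 30810 such regions 0.01, with 0.11, 0.04 and 0.08 for the 3 families. Farther out, beyond 10000 and up to 50000 bases, the 48 histone regions had a median of 0.06, against 0.00 for all. At the starts the order was another: 0.06 for histone genes, 0.15 for ribosomal protein genes, 0.11 for zinc finger genes and 0.07 for HOX genes. No test of a difference between families was made.

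**Figure D5:**
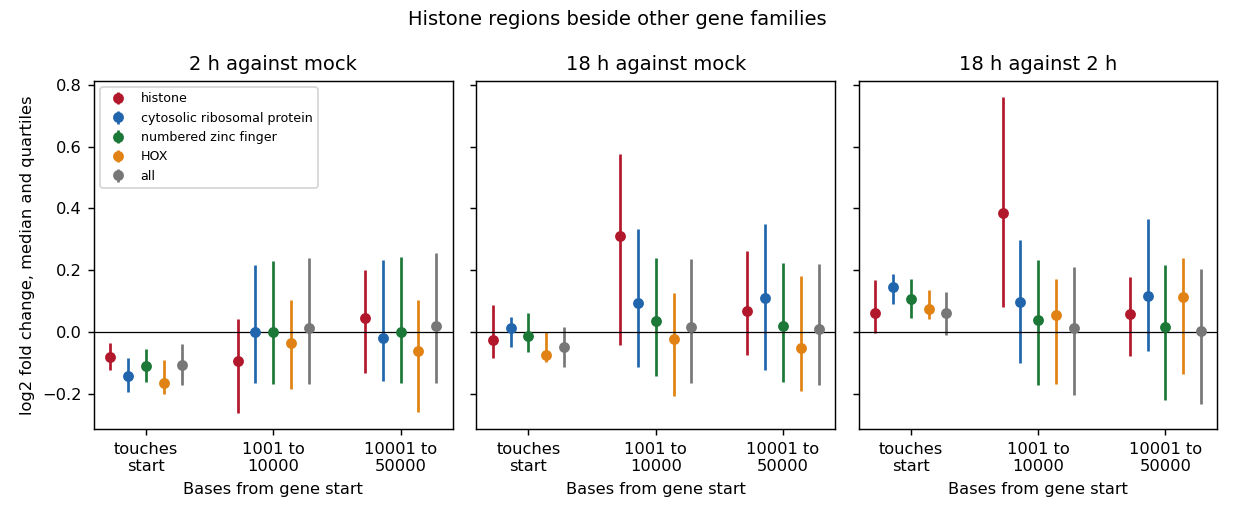
Median (point) and quartiles (bars) of the log2 fold change by distance from the gene start for histone, cytosolic ribosomal protein, numbered zinc finger and HOX genes and all regions, in each comparison. Between 1000 and 10000 bases the histone median is 0.31 at 18 h relative to mock and 0.39 at 18 h relative to 2 h, above the other families, and at the starts it is not. At 18 h relative to mock 66 of these histone regions were untested, and the 12 tested ones had a median of -0.08.

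Genes that make, process or deposit histones were read at the region nearest their start, within 1000 bases. None was called in any comparison by DESeq2 in the authors' deposited tables: 0 of 15 measured genes of histone message synthesis and processing (NPAT, SLBP and others), 0 of 7 that drive S phase (CCNE1, CDK2, E2F1 and others), 0 of 9 histone chaperones and 0 of 10 replication-independent histone genes. Since 0.103%, 0% and 0.256% of all tested gene starts were called in the 3 comparisons, a count of 0 in lists this short is the background. At 2 h an unadjusted DESeq2 p under 0.05 was found for CDK2 and for 3 of the 10 replication-independent histone genes (H3F3A, H2AFX and H2AFY2), all lower. Of all tested gene starts 7.38% had such a p (7.15% lower). For 18 h against 2 h ASF1A and H3F3B had one, both higher, against 3.19% of all tested gene starts (2.58% higher). Their median log2 fold changes for 2 h against mock were -0.13, -0.12, -0.12 and -0.18 in the authors' deposited table, and for 18 h against 2 h 0.08, 0.13, 0.09 and 0.13. At the NPAT start the values were -0.16 at 2 h and -0.03 at 18 h against mock, with a mean signal of 948. Histone starts, at -0.08 and 0.06, lay nearer to 0 in both comparisons, and this difference was not tested.

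The labelled cell type was checked at the starts of lineage genes, where an open start does not measure expression. In the authors' deposited table MITF, the melanocyte master regulator, had a mean signal of 694 and SOX10 63.8, and PMEL shared a region of 298 with CDK2. No region of these tables lay within 1000 bases of the starts of MLANA, TYR, DCT or TYRP1. Of 4 markers each, 2 keratinocyte genes (26.9 and 69.4), 3 fibroblast genes (45.2 to 448), 1 endothelial gene (KDR, 197) and 1 immune gene (LYZ, 210) had such a region. No melanocyte marker region was called in the 3 comparisons. In bulk chromatin a change in the share of cells and a change within each cell cannot be told apart, and the share of cells in S phase was not measured in these tables.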

How the data were processed

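ATAC-seq regions of A375 cells were used as the authors' 3 deposited comparison tables. Per the submitters' processing notes, bcl2fastq 2.17 and DESeq2 were used on build hg38; aligner, peak caller and the handling of multiply mapped reads are not given in the sources used here. Mean signal is the authors' normalised read count averaged over 6 libraries. The deposited log2 fold changes with standard errors, the Wald statistic (a score by the authors) and the deposited p-values were taken as they stand, and the test planned for counts could not be run. Depth per library is unknown, so precision is that of the standard errors.

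Repeat rows of a region were dropped. A region was called where the adjusted p was under 0.05, and an adjusted p of exactly 1, which the authors wrote for every region under the limit on mean signal, was taken as not tested. Intervals are at 95%. Named histone regions were drawn from the called ones, the smallest p per comparison and the extremes per histone type. The 5 highest and 5 lowest start signals were named as well. Not every extreme per type is named in the text. Other regions were described beyond this plan, among them those next to the distance limit, the highest flanking regions and the series behind HIST3H2A. Members and lists were chosen with earlier results of these data known. Of 59 deposited names 55 matched RefSeq (GRCh38.p14), which gave strands and promoters. Python 3.11.15, pandas 2.3.3, numpy 2.4.6, SciPy 1.17.1 and matplotlib 3.10.9 were used.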

Additional observations from a re-analysis of the deposited data

Results flagged for a closer look

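The region upstream of HIST1H2AL differed between the time points by 0.80 on the log2 scale (18 h against 2 h, adjusted p = 0.0407 by DESeq2 in the authors' deposited table). It is listed because its effects at 2 h and 18 h against mock, -0.46 and 0.34, differ by that test. By itself the effect at 2 h did not pass the threshold. The effect at 18 h was not tested, since the region lay under the limit on mean signal there.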

How the results depend on the processing

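Count models, other scalings of the reads and leaving out libraries were not run, since they need values per library. No paired analysis was possible because the deposited tables hold no values per library. The counts of called histone regions at 2 h and 18 h against mock were 0 under all alternatives run (centring on the median region, centring within bins of mean signal, no filter on mean signal, thresholds of 0.1 and 0.01, distance limits of 1000 and 50000 bases, without HIST2H3PS2, without the near-identical copies). For 18 h against 2 h the count of 1 fell to 0 with no filter on mean signal (adjusted p of HIST1H2AL = 0.0813; 0.0407 to 0.0442 under the other settings), with a threshold of 0.01 and with a limit of 1000 bases. The median over tested histone regions was -0.09, -0.04 and 0.09 in the 3 comparisons. It ranged over the alternatives from -0.10 to 0.02, from -0.04 to 0.09 and from 0.03 to 0.16; with untested regions included, the 18 h against mock value was 0.091. It turned positive when centred on the median gene start (0.02 at 2 h, 0.01 at 18 h against mock) and, at 18 h against mock, also when centred on the median region (0.03) or in bins (0.04). The alternatives on the near-identical copies and on the flanking regions were chosen after seeing the data.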
